A study of Mus musculus with 2 samples.

Results

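Methylation of single CpGs was compared across the genes of the GATA transcription factors on the autosomes, Gata2, Gata3, Gata4, Gata5 and Gata6, between Dnmt1+/+ and Dnmt1-/- mouse embryonic fibroblasts (MEFs). Members were the CpGs in the body of each of the 5 genes and in 5 kb to either side. These windows held 1145 of the 1790826 CpGs in the series. Methylation had been read by reduced-representation bisulfite sequencing, in which restriction fragments are treated with bisulfite so that only methylated cytosine is still read as cytosine. There was 1 library per genotype and no replicate, so each difference is between libraries and has counting error only. Dnmt1-/- MEFs carried a hypomorphic Dnmt1 allele on both chromosomes, and both lines were trp53 null. Their derivation was described elsewhere, and the number of clones or embryos behind each line is not given in the sources used here. A methylation table measures neither Dnmt1 nor fibroblast markers, so the genotype and cell type labels could not be checked against expression.

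GATA factors are zinc finger proteins that bind the sequence GATA. GATA2 and GATA3 act mainly in blood: GATA2 maintains haematopoietic stem and progenitor cells, and GATA3 directs T helper and innate lymphoid fates and also works in trophoblast, mammary gland and kidney. GATA4, GATA5 and GATA6 act in heart and endoderm. The promoters of such developmental regulators usually lie in CpG islands, stretches rich in CpG that stay largely unmethylated, while gene bodies and intergenic DNA are mostly methylated. DNMT1 restores methylation on newly made DNA by reading the parental strand.

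The values below are for CpGs outside CCGG and TCGA, the recognition sequences of MspI and TaqI. CpGs inside these sequences averaged 67.8% in Dnmt1+/+ and 58.4% in Dnmt1-/- at 374 CpGs of the windows, and 82.8% and 57.1% over the whole table. They were left out, which leaves 771 CpGs of the windows. Whole-table mean methylation of the remaining 996064 CpGs was 45% in Dnmt1+/+ and 15.1% in Dnmt1-/-. Median depth over the whole table was 29 and 30 methylation calls per CpG, and the 5 windows held 40545 and 42636 calls. A CpG with 0 methylated calls at the median depths allows up to 10.3% and 10% methylation (3 calls).

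The sequences of 5 stretches that carry the findings are shown first, with coordinates on NCBIM37 (mm9), plus strand, 5′ to 3′. CG in capitals marks the CpGs measured outside CCGG and TCGA, and a cg in lower case was either not measured or left out. The first pair of stretches was higher in Dnmt1-/-, the next pair held the run of CpGs with the largest difference downward in Gata2 and in Gata5, and the last had both the largest difference downward among the Gata3 runs and the highest Dnmt1-/- mean of the Gata3 runs that were at 50% or more in Dnmt1+/+. Gata2 lies on the plus strand, Gata3 and Gata5 on the minus strand. Only the part of the Gata3 stretch outside annotated untranslated regions of neighbouring genes is printed.
Gata3 intronic island, higher in Dnmt1-/-, chr2:9804550-9804657: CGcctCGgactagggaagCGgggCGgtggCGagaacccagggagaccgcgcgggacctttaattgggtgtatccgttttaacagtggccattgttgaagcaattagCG
Gata2 coding exon 2, higher in Dnmt1-/-, chr6:88149589-88149684: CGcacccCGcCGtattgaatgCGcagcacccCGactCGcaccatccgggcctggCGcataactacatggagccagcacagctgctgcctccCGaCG
Gata2 coding exon 5 and intron, lower in Dnmt1-/-, chr6:88154593-88154861: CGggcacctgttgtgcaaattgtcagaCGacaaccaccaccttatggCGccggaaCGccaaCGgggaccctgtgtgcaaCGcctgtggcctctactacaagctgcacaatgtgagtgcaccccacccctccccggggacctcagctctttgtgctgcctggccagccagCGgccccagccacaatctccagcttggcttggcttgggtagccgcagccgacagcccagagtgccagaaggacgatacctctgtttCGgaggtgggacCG
Gata5 promoter island, lower in Dnmt1-/-, chr2:180068460-180068739: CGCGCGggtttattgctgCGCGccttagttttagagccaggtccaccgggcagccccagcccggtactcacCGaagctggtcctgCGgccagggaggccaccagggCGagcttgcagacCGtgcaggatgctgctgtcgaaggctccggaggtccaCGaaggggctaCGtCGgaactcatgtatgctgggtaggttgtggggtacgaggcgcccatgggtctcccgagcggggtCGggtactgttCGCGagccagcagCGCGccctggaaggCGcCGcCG
Gata3 last coding exon, run with the largest difference downward and highest kept, chr2:9780057-9780189: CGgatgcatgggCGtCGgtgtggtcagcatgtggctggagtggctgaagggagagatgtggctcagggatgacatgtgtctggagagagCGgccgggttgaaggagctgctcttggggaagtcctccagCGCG

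The Gata windows were less methylated than the table as a whole in Dnmt1+/+ and retained a larger part of that methylation in Dnmt1-/-. The 771 CpGs averaged 28.1% in Dnmt1+/+ and 18.7% in Dnmt1-/-. The second value is 66.4% of the first, against 33.6% over all 996064 CpGs. Pooled calls gave 24.9% (95% Wilson interval 24.5 to 25.3%) and 16.1% (15.7 to 16.4%). By Fisher's exact test (two-sided) on each CpG's calls, adjusted by the Benjamini-Hochberg method over all 996064 CpGs, 184 of the 771 fell (23.9%) and 42 rose (5.45%). Among all CpGs of the table, 44.2% were called lower and 0.637% higher. The test compares the libraries, and neighbouring CpGs share reads, so these CpGs are not independent.

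Island content differed between the windows and the table, so shares were also read within islands, computed as unions of 200-bp windows with at least 50% GC and an observed/expected CpG ratio of at least 0.6. Of the 597 island CpGs in the Gata windows, 18.3% fell and 6.2% rose, against 16.4% and 1.02% of the 551712 island CpGs of the table. Of the 37 Gata island CpGs that rose, 20 lay in a single Gata3 island and 8 in an island over exon 2 of Gata4. Island means were 20.9% in Dnmt1+/+ and 16.3% in Dnmt1-/- for the Gata genes, and 16.7% and 7.08% for the table. Outside islands, 174 Gata CpGs averaged 53.0% and 27.0%, while the 444352 of the table averaged 80.2% and 25.1%. Of these Gata CpGs 43.1% fell and 2.87% rose, against 78.8% and 0.161% of the table's. Outside islands the Gata genes therefore stood apart mainly in Dnmt1+/+, where their level was lower.

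**Figure D1:**
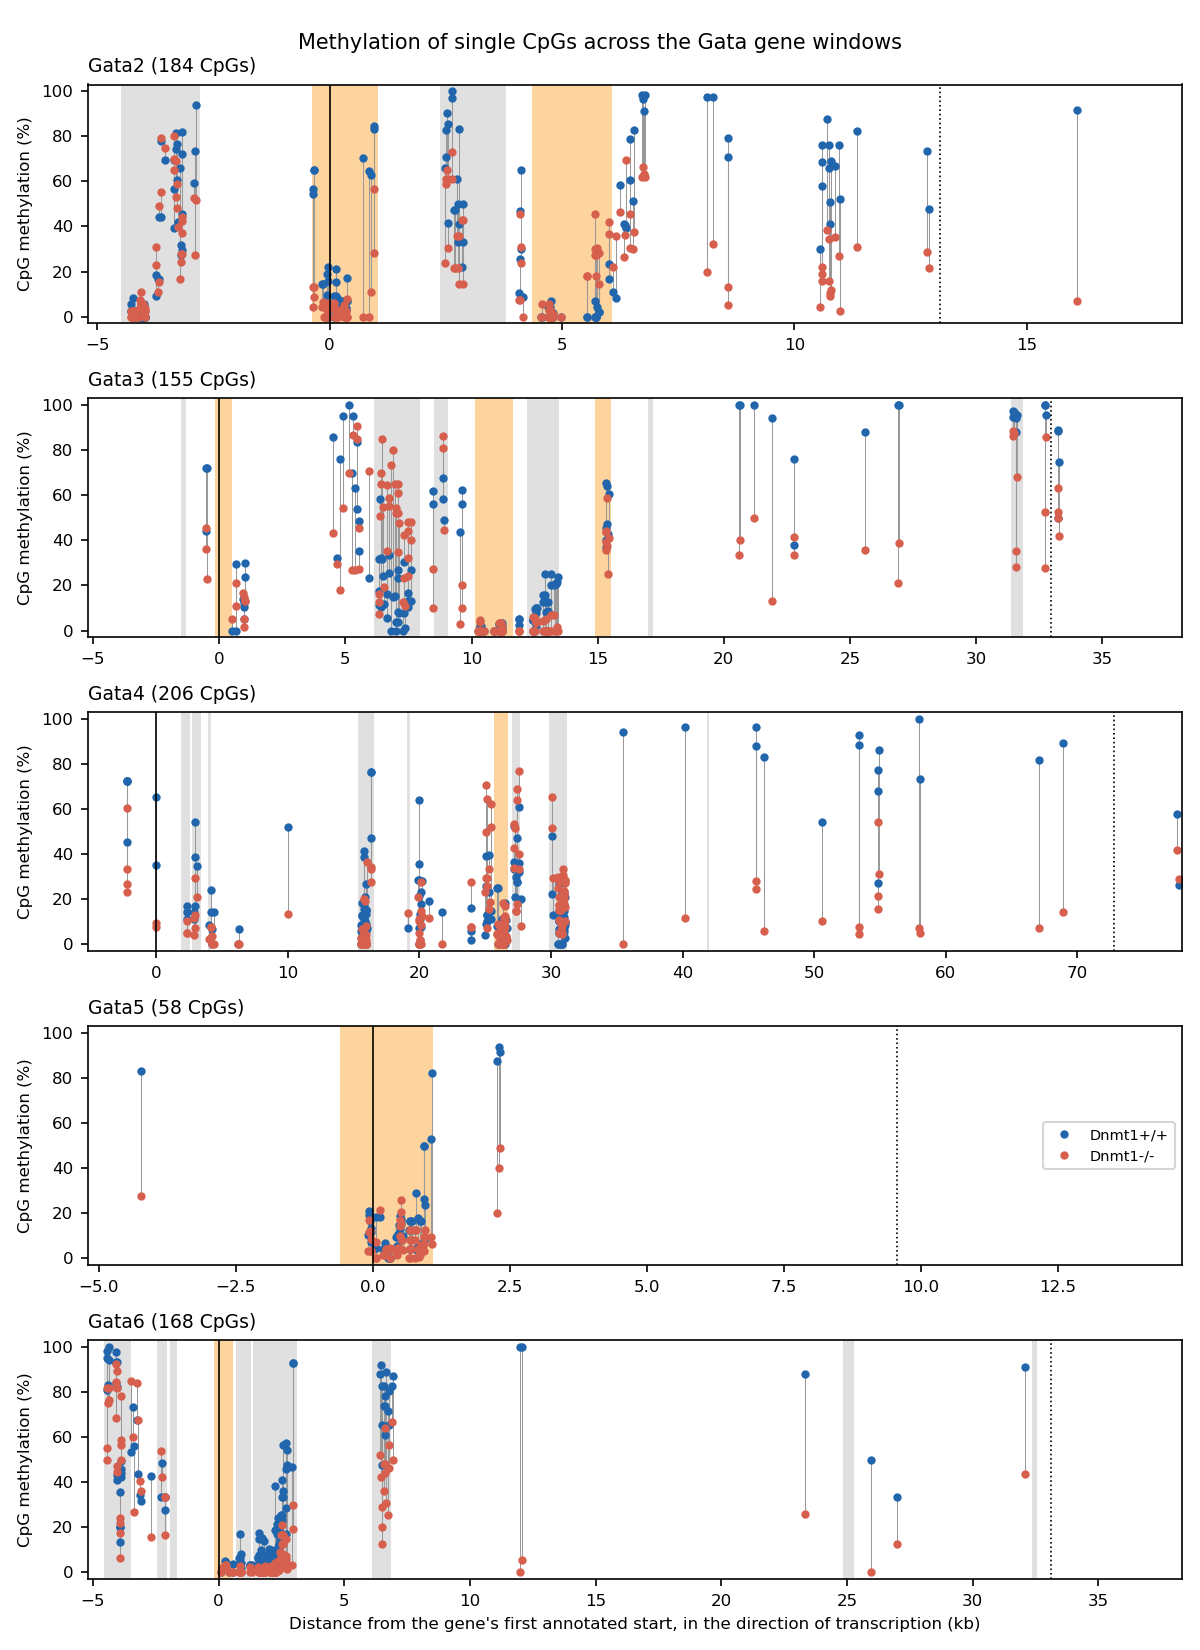
Methylation of each CpG outside CCGG and TCGA (y axis, percent) against its distance from the first annotated start of the gene (x axis, kb, in the direction of transcription) in Dnmt1+/+ and Dnmt1-/- MEFs, with a grey line joining the libraries at each CpG. Orange bands are promoter islands, grey bands other islands, the solid line the start and the dotted line the end of the gene. Most points outside bands drop in Dnmt1-/-, and the grey band 6131 to 7943 bp into Gata3 shows red points above blue.

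All 5 genes had a lower mean in Dnmt1-/-, to different extents. Gata5 averaged 20.2% in Dnmt1+/+ and 8.96% in Dnmt1-/- at 58 CpGs, with 12 CpGs lower and 0 higher. Gata6 averaged 30.8% and 17.9% at 168 CpGs, with 57 lower and 1 higher. Gata2 averaged 32.6% and 20.1% at 184 CpGs, with 52 lower and 3 higher. Gata4 averaged 21.4% and 14.8% at 206 CpGs, with 32 lower and 15 higher. Gata3 averaged 31.9% and 26.8% at 155 CpGs, with 31 CpGs lower and 23 higher. Of the 42 CpGs that rose, 38 were in Gata3 and Gata4.

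CpGs that were highly methylated in Dnmt1+/+, at 80% or more, numbered 86 in the 5 windows and averaged 45.8% in Dnmt1-/-, against 32.0% for the 377268 such CpGs of the table. The Gata3, Gata6 and Gata2 means were 54.4% (23 CpGs), 53.9% (26 CpGs) and 47.6% (21 CpGs). Gata5, at 28.6% (5 CpGs), and Gata4, at 13.0% (11 CpGs), were below the table's level. CpGs at 80% or more in Dnmt1-/- numbered 21, of which 11 were in Gata3, 9 in Gata6 and 1 in Gata2. They made up 2.72% of the Gata CpGs, against 2.46% over the table. At the other end, CpGs with a Dnmt1+/+ level of 20% or less numbered 451 and had a mean of 7.63% in Dnmt1-/-, against 2.06% over the table. By gene that mean was 13.2% in Gata3, 9.54% in Gata4, 6.74% in Gata5, 6.61% in Gata2 and 1.38% in Gata6. Such means are levels and not changes, since the Dnmt1+/+ mean of this class is not given. In Gata5, 0 CpGs were called higher.

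Promoter islands, which overlapped or lay within 500 bp of an annotated start of the gene, were less methylated than bodies and flanks in both libraries. Over the 209 promoter island CpGs of the 5 genes the means were 11.6% in Dnmt1+/+ and 7.32% in Dnmt1-/-, and 21 CpGs fell and 5 rose. No gene's mean over its promoter islands differed by 10 points or more, although the Gata2 mean joins an island with a difference of -16.1 points and one with 9.36 points, described below. Among 12233 protein-coding genes with at least 5 CpGs in promoter islands, 7.73% were lower by 10 points or more and 0.801% higher, and the mean over genes was 6.47% in Dnmt1+/+ and 3.21% in Dnmt1-/- (median gene 2.04% and 1.12%). By contrast, Gata body CpGs outside islands averaged 51.6% and 24.8% (150 CpGs, 69 lower and 5 higher) and flank CpGs 61.7% and 41.1% (24 CpGs, 6 lower and 0 higher). Islands away from any start of the Gata gene itself averaged 25.9% and 21.1% (388 CpGs, 88 lower and 32 higher). The difference was -4.32 points at promoter islands, -4.79 at other islands, -26.9 in bodies and -20.7 in flanks. With 1 kb around starts in place of islands, it was -5.55 near starts, -12.3 in bodies and -6.59 in flanks. Bodies and flanks then include island CpGs.

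**Figure D2:**
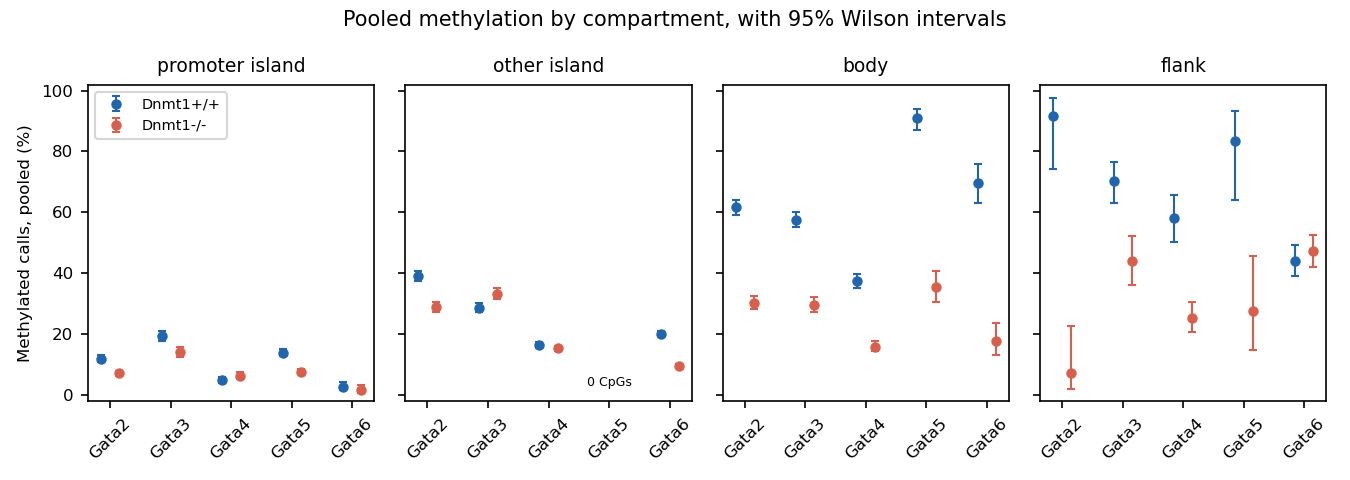
Pooled methylated calls (y axis, percent) of each Gata gene in Dnmt1+/+ and Dnmt1-/- MEFs, in panels for promoter islands, other islands, body and flank. Points are single libraries and bars are 95% Wilson intervals, which cover counting error only. Body points drop in all 5 genes, while other islands of Gata3 are higher in Dnmt1-/- (28.7% and 33.3%), and Gata5 has 0 CpGs there.

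Apart from Gata5, with 3 body CpGs, Gata bodies were less methylated in Dnmt1+/+ than the median gene body. The median body over 11364 protein-coding genes with at least 5 such CpGs was 85.7% in Dnmt1+/+ and 28.1% in Dnmt1-/-, with a median difference of -52.1 points and quartiles of -63 and -42.1. Gata2 bodies were at 60.3% and 28.6% (40 CpGs), Gata3 at 57.9% and 32.1% (41 CpGs), Gata4 at 36.0% and 16.5% (57 CpGs) and Gata6 at 70.6% and 22.7% (9 CpGs). The 3 Gata5 body CpGs went from 91.1% to 36.3%, and all 3 fell. Differences of -31.6, -25.8 and -19.5 points in Gata2, Gata3 and Gata4 lay above the upper quartile of genes. With 1 kb around starts in place of islands, which counts island CpGs as body, they were -27, -4.52 and -7.73 points. The Gata4 body was uneven: its 16 CpGs beyond exon 2 averaged 81.2% and 15.6%, with 13 lower. The Gata6 difference of -47.8 points rested on 9 CpGs and was -29.9 with CpGs in CCGG or TCGA, -31.1 with stricter islands and -17 with 1 kb around starts.

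To follow methylation at finer scale, CpGs at most 100 bp apart were joined into runs of at least 5, which gave 40 runs in the Gata windows and 43016 in the table. Of the Gata runs, 30 had a lower mean in Dnmt1-/- and 10 a higher one, with a median difference of -4.94 points. A mean lower by 25 points or more was seen in 3 runs (7.5%), against 38.8% of the table's runs. Most Gata runs lay in islands, and runs were not matched by island or by Dnmt1+/+ level. A mean higher by 25 points or more was seen in 2 runs (5%), 1 in Gata3 and 1 in Gata2, against 0.418% of the table's runs.

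**Figure D3:**
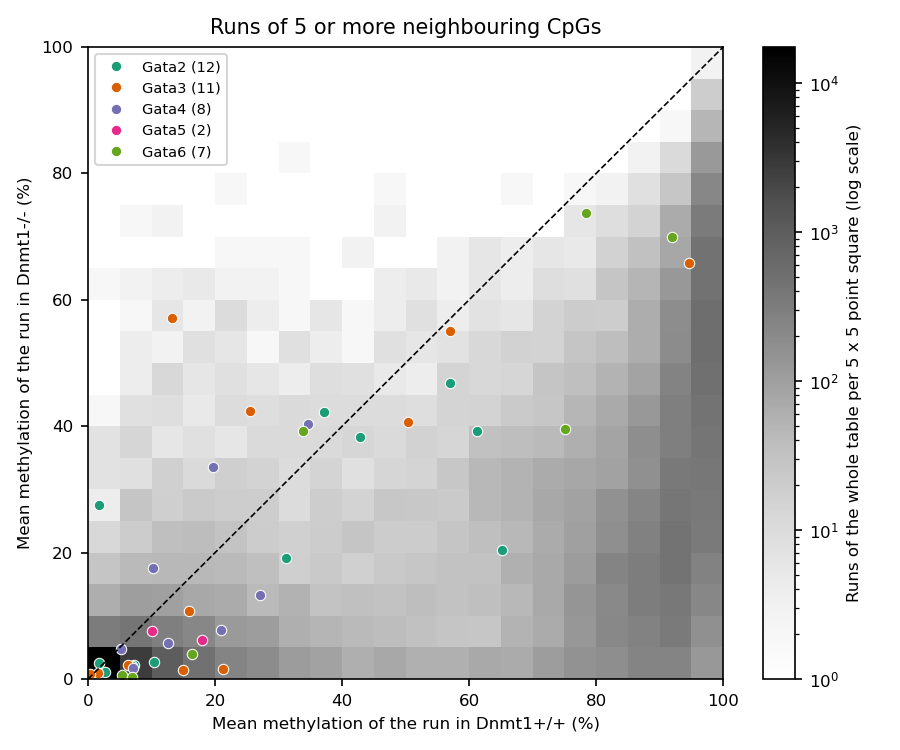
Mean methylation of each run in Dnmt1+/+ (x axis, percent) and Dnmt1-/- (y axis, percent), for the 40 runs of the Gata genes (coloured points) over the counts of all 43016 runs (grey squares, log scale). The dashed line marks equal values. The Gata3 run at 13.2% and 57.2% and the Gata2 run at 1.72% and 27.6% stand farthest above it among the coloured points.

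Gata2, the stem and progenitor cell factor, has annotated starts at chr6:88143885 and chr6:88148658, each in a promoter island, and these islands differed in opposite directions. The island at the first start (chr6:88143500-88144924) averaged 21.2% in Dnmt1+/+ and 5.10% in Dnmt1-/- at 41 CpGs, with 11 lower and 0 higher. CpGs next to the start itself were already low, and the 3 runs from 171 bp upstream to 380 bp downstream averaged 10.4%, 7.19% and 6.92% in Dnmt1+/+ and 2.69%, 2.18% and 2.05% in Dnmt1-/-. The island at the second start (chr6:88148246-88149956) averaged 3.12% and 12.5% at 31 CpGs (2.58% and 7.92% with calls pooled), with 1 lower and 3 higher. Its values in Dnmt1-/- were uneven: the run across the start stayed at 2.74% and 1.16% (15 CpGs).

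The 3 CpGs of that island that rose lay in a run within coding exon 2 of Gata2 (chr6:88149589-88149684), whose sequence is printed above. Other CpGs of the island outside exon 2 were also higher without being called, such as chr6:88149421 at 0 and 18.2% and chr6:88149903 at 16.7 and 36.8%. In Dnmt1+/+ the 9 CpGs of the run lay at 0 to 7.14%, and in Dnmt1-/- at 14.6 to 45.5%. The run was named for having the largest rise in Gata2, and such ranges were not compared over other runs. Pooled calls gave 2.19% (95% Wilson interval 1.07 to 4.46%) and 24.0% (20.4 to 28.0%). Only 3 of the 9 CpGs passed the exact test, those with 48 to 96 calls in Dnmt1+/+ and 82 to 164 in Dnmt1-/-, and they went from 4.17% to 30.5%, from 2.08% to 28.0% and from 2.08% to 14.6%. The other 6 had 10 to 14 calls. Of the 43016 runs, 176 (0.409%) had a difference at least as high as its 25.9 points. With at least 20 calls in each library, the 3 remaining CpGs averaged 2.78% and 24.4%.

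Of the other 11 Gata2 runs, 9 had a lower mean in Dnmt1-/-. The run with the largest difference, in coding exon 5 and the following intron (chr6:88154593-88154861), averaged 65.1% in Dnmt1+/+ and 20.5% in Dnmt1-/-. Its CpGs spanned 41.0 to 87.5% in Dnmt1+/+ and 2.7 to 38.5% in Dnmt1-/-, and 8 of 9 fell. The intronic island between the starts (chr6:88146262-88147669) averaged 61.3% and 39.2% at 18 CpGs, with 7 lower. Upstream, the island at -4481 to -2795 bp from the first start averaged 26.9% and 23.5% at 53 CpGs (33.6% and 26.0% with calls pooled), with 7 lower and 0 higher. It held the remaining 2 runs, at 1.78% and 2.6% (27 CpGs) and at 37.2% and 42.3% (8 CpGs), with 0 CpGs called in either. Its run at chr6:88140527-88140710 kept the most among Gata2 runs at 50% or more in Dnmt1+/+, with 57.0% and 46.9% at 15 CpGs and 5 lower.

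Gata3, the T helper factor, held the largest difference upward in the family. Its island at chr2:9803718-9805530, within an intron of the longest transcripts and 6131 to 7943 bp from their start, averaged 16.6% in Dnmt1+/+ and 45.7% in Dnmt1-/- at 33 CpGs, and 20 CpGs rose and 0 fell. The run at its centre (chr2:9804550-9805023) went from 13.2% to 57.2% over 14 CpGs, and 13 of the 14 rose. CpGs of the run spanned 0 to 33.3% in Dnmt1+/+ and 34.8 to 80% in Dnmt1-/-. The CpG at 34.8%, chr2:9804555, was at 26.9% in Dnmt1+/+ and was not called. This run was named for having the largest rise in Gata3, and such ranges were not compared over other runs. Depth was 20 to 86 calls per CpG in Dnmt1+/+ and 15 to 68 in Dnmt1-/-, and pooled calls gave 16.2% (95% Wilson interval 13.4 to 19.5%) and 55.3% (50.8 to 59.8%). Only 42 of the 43016 runs (0.0976%) had a difference as high. The CpG with the largest change, chr2:9804862, had 0 methylated calls of 20 in Dnmt1+/+ and 73.3% of 15 calls in Dnmt1-/- (adjusted p by the exact test 1.39e-05).

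The change was not even across that island. The neighbouring run nearer the start of Gata3 (chr2:9805142-9805338) averaged 25.5% and 42.4% at 9 CpGs with 2 higher (27.0% and 33.1% with calls pooled), and its outermost CpGs, at 6324 to 6383 bp, had values in Dnmt1-/- between 7.27 and 50.9% against 11.4 to 58.2% in Dnmt1+/+, each lower in Dnmt1-/- and none called. On the other side, 4 deeper CpGs at 7302 to 7362 bp went from 0, 7.84, 30.3 and 1.32% to 12.5, 23.1, 42.2 and 11.1%, and 3 of these 4 rose. The island also lies within 4930412O13Rik (plus strand, chr2:9802879-9805548) and partly within 9230102O04Rik (minus strand, chr2:9804668-9811167), genes annotated as protein coding, and the central run overlaps exons of both.

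**Figure D4:**
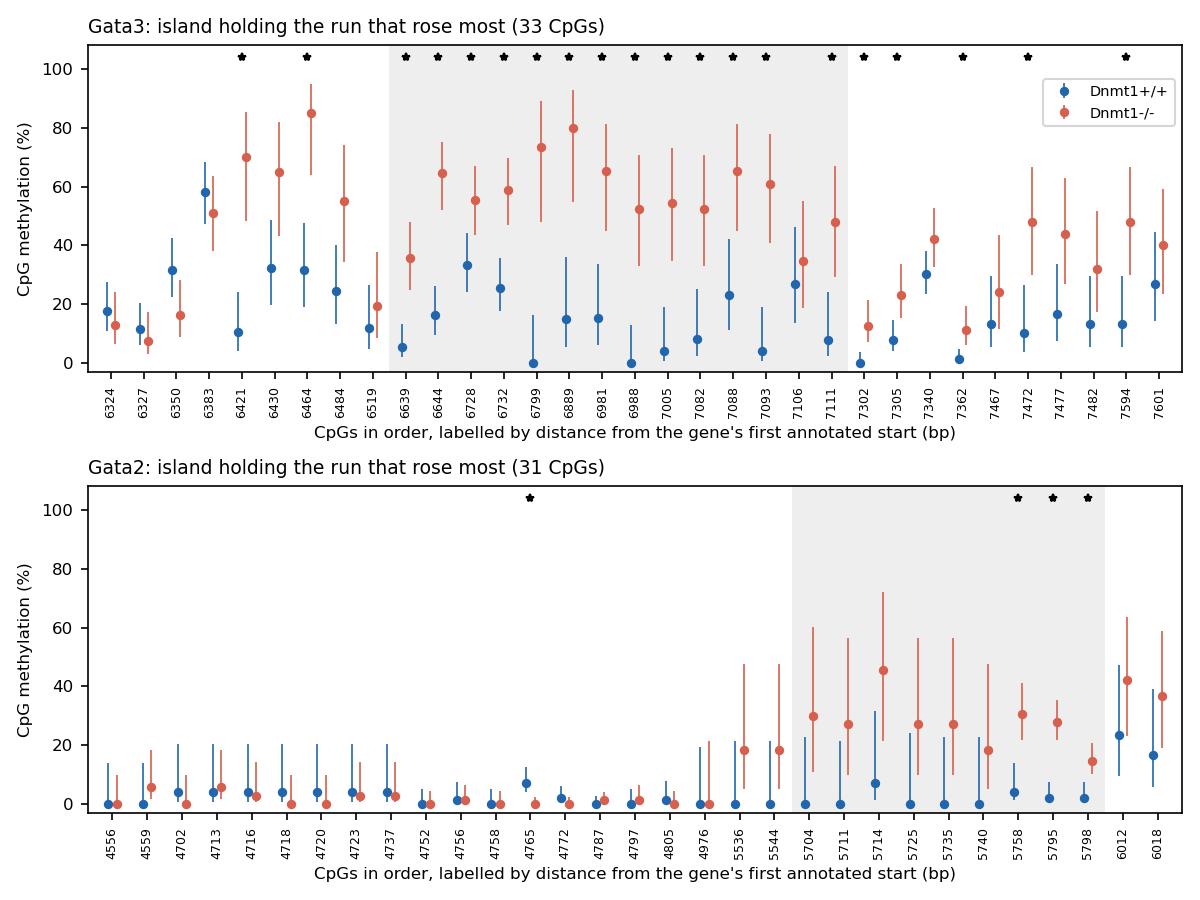
Methylation of each CpG (y axis, percent) in the Gata3 island and the Gata2 island that hold the highest rising runs, in order along the gene and labelled by distance from its first annotated start (x axis, bp). Points are single libraries, bars 95% Wilson intervals on that CpG's calls, stars CpGs with an adjusted p under 0.05 in either direction, and shading the run. In the shaded Gata3 run all 14 Dnmt1-/- points lie above their Dnmt1+/+ points, and in the shaded Gata2 run all 9 do.

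The next island into the gene (chr2:9802610-9803153) holds the annotated start of 4930412O13Rik, at chr2:9802879. There, 3 CpGs averaged 58.5% and 70.6%, and 1 rose, at chr2:9802787 from 58.5% to 86.4%. At the start of the coding Gata3 transcript Gata3-001 (chr2:9800227), the island averaged 1.5% and 1.01% at 12 CpGs. The island after it averaged 0.298% and 0.589% at 14 CpGs, with 0 CpGs called in either. The promoter island at the start of the longest transcripts (chr2:9811136-9811836) held only 1 CpG, at 0 and 5.26% with 17 and 19 calls. The island at chr2:9798212-9799481, over exon 2 and introns, averaged 11.9% and 1.83% at 30 CpGs with 5 lower. A further island counted as a promoter island, through the start of the non-coding transcript Gata3-003, lies over coding exon 3 and averaged 50.4% and 40.6% at 8 CpGs with 1 lower. In the last coding exon, exon 6 (chr2:9780057-9780189), 6 CpGs averaged 94.6% and 65.8%, the largest difference downward among the Gata3 runs (-28.9 points), and 4 fell. Within that run the CpGs differed strongly in Dnmt1-/-: neighbours at chr2:9780069 and chr2:9780072 were at 28.0% and 35.4% with 82 calls each, while the remaining 4 were between 68.3 and 88.6%.

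Gata4, which drives cardiac and endodermal genes, had 15 CpGs that rose, 12 of them in islands. Its promoter island, at the starts of 3 coding transcripts near chr14:63864085, averaged 5.16% and 4.76% at 40 CpGs (4.91% and 6.4% with calls pooled), with 2 CpGs higher, from 1.80% to 12.7% and from 1.43% to 11.8%. Gata4 had no other promoter island, and its first annotated start, at chr14:63890529, had none. A run within exon 2 (chr14:63859451-63859987, coding sequence and untranslated region) averaged 10.2% and 17.5% at 36 CpGs. Of these, 8 rose, at depths of 70 calls or more, to values between 10.6 and 33.6%. The island between them averaged 36.7% and 42.8% at 12 CpGs, with 2 higher. The intronic run with the largest difference upward, at chr14:63865203-63865524, averaged 19.7% and 33.6% at 11 CpGs, but only 1 was called, and the 6 CpGs with at least 20 calls in each library averaged 20.9% and 21.8%. The island 15330 to 16529 bp into the gene was lower in Dnmt1-/-, at 15.4% and 6.78% over 38 CpGs with 10 lower. Beyond exon 2, the 16 sparse CpGs of the rest of the body averaged 81.2% and 15.6%, with 13 lower and 0 higher. The run with the largest difference downward, at chr14:63887605-63887635, averaged 27.1% and 13.3% at 5 CpGs with 3 lower.

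Gata5, a cardiac and endodermal factor, had 1 island and 0 CpGs higher. The island (chr2:180068313-180070010) spans both annotated starts and averaged 15.1% and 7.09% at 54 CpGs, with 8 lower. The run across the starts averaged 10.1% and 7.62% at 32 CpGs with 1 lower. The run farther into coding sequence and intron, printed above, averaged 17.9% and 6.18% at 20 CpGs, and 5 fell. Its CpGs lay at 4.17 to 50% in the Dnmt1+/+ library, and the highest in Dnmt1-/- was 12.5%. Both runs also lie within Gm14318, a coding gene on the opposite strand that starts at chr2:180067562.

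Gata6, required in early endoderm, had little methylation at its start and more upstream of it. Its promoter island averaged 2.21% and 1.27% at 8 CpGs with 0 called. This island also holds the start of the long non-coding RNA gene 1010001N08Rik, on the opposite strand, 57 bp away. The island over coding exon 2 (chr18:11053890-11055624) averaged 14.9% and 3.36% at 93 CpGs with 36 lower and 0 higher. The island over exon 3 and parts of the introns on both sides of it was higher at the outset, with 75.1% and 39.6% at 14 CpGs and 9 lower. Upstream, the island at -4554 to -3493 bp from the start averaged 65.9% and 60.2% at 22 CpGs (59.0% and 55.6% with calls pooled), with 7 lower and 1 higher. Within it, the run at chr18:11048420-11048480 averaged 78.4% in Dnmt1+/+ and 73.8% in Dnmt1-/- (8 CpGs, 1 lower), the highest mean in Dnmt1-/- among the 40 runs. Another run of that island, at chr18:11048049-11048165, averaged 91.9% and 70% at 6 CpGs with 5 lower. The 8 flank CpGs outside islands averaged 50.3% and 52.0% with 0 called, a difference of 1.67 points that turned to -3.14 with stricter islands.

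Base composition overlapped between the runs that were higher and lower. GC content was 56.1% in the Gata3 run and 66.7% in the Gata2 run that were higher by 25 points or more, with 5.91 and 10.4 CpGs per 100 bp. The 3 runs lower by 25 points or more, in Gata2, Gata3 and Gata6, had GC contents of 62.8%, 62.4% and 62.6% and 5.2, 5.26 and 6.74 CpGs per 100 bp. With so few runs no difference was tested.

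Promoter islands of genes that work with GATA factors were then read by the same rule, from lists of 41 genes, of which 28 had at least 5 CpGs there. A difference of 10 points or more was seen in 5, all lower, and the median difference was -1.66 points. As given above, 7.73% of protein-coding genes were lower by as much. Among 8 measured relatives with a GATA-type zinc finger, Zglp1, a germ cell regulator, was at 85.5% in Dnmt1+/+ and 14.5% in Dnmt1-/- (7 CpGs), and the other 7 lay at 2.22% or less in both. Of 6 cofactors, 0 differed by 10 points. These include Zfpm1 and Zfpm2, the FOG proteins that bind GATA factors, at 1.45% and 0.67% and at 1.57% and 0.906%. Of 2 measured blood partners, Runx1 and Fli1, and of 4 T cell and trophoblast partners, Tbx21, Cdx2, Eomes and Tfap2c, 0 did. Of 8 heart and endoderm partners 4 were lower by 10 points or more. They were Nkx2-5, a cardiac homeobox gene (26.7% and 6.46%, 15 CpGs), Sox7 (23.5% and 10.8%, 60 CpGs), Sox17 (14.4% and 2.34%, 10 CpGs) and Foxa2 (12.2% and 2.11%, 17 CpGs), the last 3 active in endoderm. The 4 genes were found among 8 with results of these data known, and the list was given no test.

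**Figure D5:**
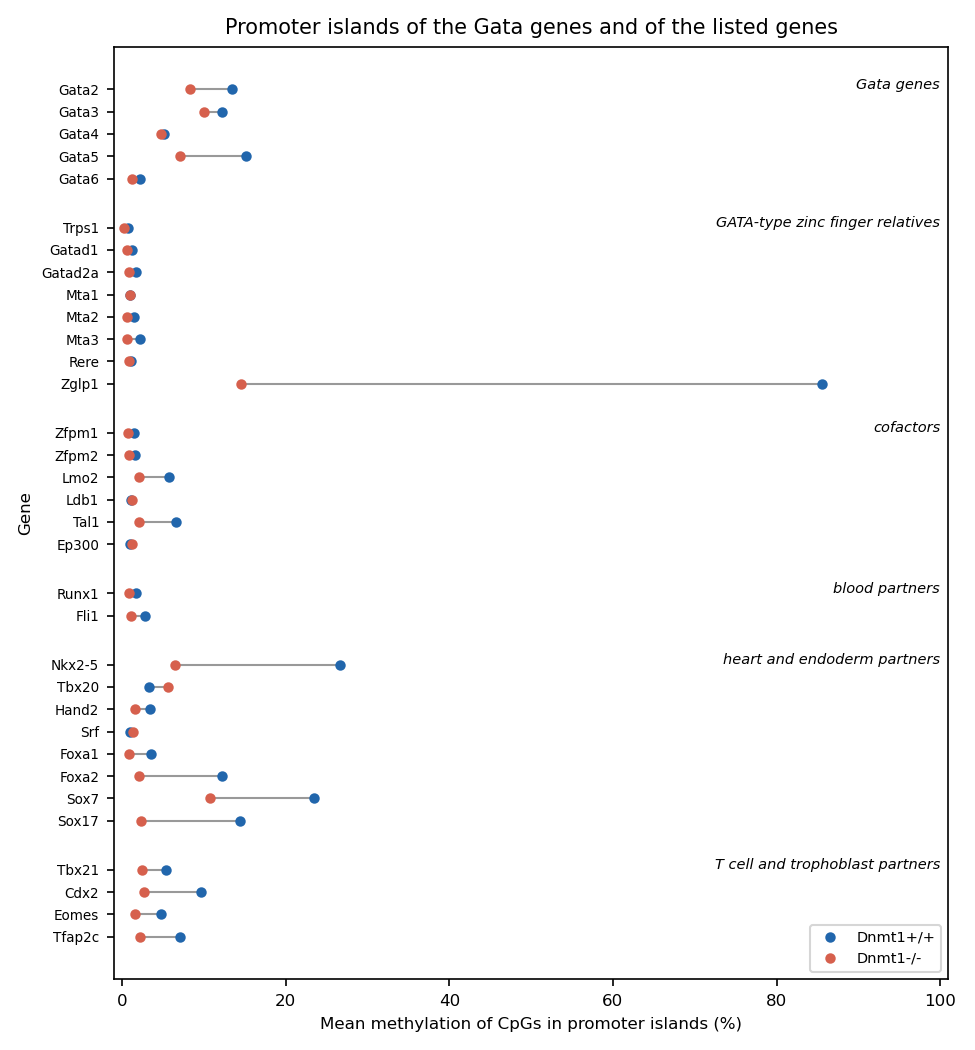
Mean methylation of promoter island CpGs (x axis, percent) in Dnmt1+/+ and Dnmt1-/- MEFs for the 5 Gata genes and the 28 listed genes with at least 5 CpGs (y axis, by list). Points are single libraries. The 5 Gata genes lie between 1.27 and 15.1% in both libraries, while Zglp1 drops from 85.5 to 14.5%.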

How the data were processed

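Extended-coverage reduced-representation bisulfite sequencing of Dnmt1+/+ and Dnmt1-/- MEFs (1 library each) was mapped by the provider to mm9; the submitters' processing notes name Bismark, whose version is not given. The depths the authors deposited are counts of calls per CpG, both strands merged, and the authors excluded CpGs with under 10 calls in either library. The authors' percent values give the methylated part of these calls, and percent times depth was whole at 100% of CpGs (tolerance 1e-06), which gave the calls tested. Total counts were 74636195 calls in Dnmt1+/+ and 78401157 in Dnmt1-/-.

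Samples were grouped by the genotype in their labels. CpGs in CCGG or TCGA were left out. Calls at each remaining CpG were tested between libraries (Fisher's exact test, two-sided, Benjamini-Hochberg over all 996064 remaining CpGs, threshold 0.05). Gene and compartment means counted each CpG once and were not tested. Genes, starts and untranslated regions came from GENCODE vM1 and sequence from NCBIM37. Promoter islands overlapped or lay within 500 bp of any annotated start of the gene, other islands lay elsewhere in the window, and body and flank CpGs were outside islands. Named runs were, per gene, those with the largest fall and rise and, among runs at 50% or more in Dnmt1+/+, the highest in Dnmt1-/-. List genes were matched by symbol or synonym. Of the heart and endoderm list, 1 gene is not reported here and is not counted. The members and lists were chosen with earlier results of these data known. Alternatives were the inclusion of CpGs in CCGG or TCGA, a depth of at least 20, pooled calls, stricter islands (500 bp, 55% GC, ratio 0.65), 1 kb around starts, 2 kb flanks, an adjusted p under 0.01, a difference of at least 25 points, and adjustment over all CpGs. Scripts were tested on simulated data. Intervals and limits cover counting error only, since reads carried no molecular identifiers and may copy 1 molecule. Versions were pysam 0.24.0, numba 0.67.0, numpy 2.4.6, Python 3.11.15, matplotlib 3.10.9 and pandas 2.3.3, with scipy 1.17.1 in the simulated tests. Histone and expression data were not analysed here.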

Additional observations from a re-analysis of the deposited data

How the results depend on the processing

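No paired analysis was possible because replicate numbers do not exist with 1 library a genotype, and no replicate could be left out. All 4 compartment differences over the 5 genes stayed negative under every alternative run. The body difference of -26.9 points became -21.8 with CpGs in CCGG or TCGA, -29.5 with pooled calls, -18.6 with stricter islands and -12.3 with 1 kb around starts in place of islands; the last pair count island CpGs as body. The flank difference of -20.7 points became -12.1, -6.59 and -29.5 with stricter islands, 1 kb around starts and 2 kb flanks (8 CpGs). The promoter island difference of -4.32 points became -5.24 at a depth of at least 20 and -5.55 with 1 kb around starts, and the other island difference of -4.79 points became -6.04 with pooled calls. With a difference of at least 25 points required, 122 CpGs were called lower and 27 higher. For single genes and compartments, 105 alternatives gave 68 values of the same sign as the reported one and within its counting error, 32 of the same sign beyond it and 5 of the other sign. Those 5 were the Gata4 promoter island, at 0.676 points with a depth of at least 20 and 1.49 with pooled calls, and the Gata6 flank (1.67 points as reported), at -0.671 with CpGs in CCGG or TCGA and -3.14 with stricter islands or with 1 kb around starts. For the named runs, a depth of at least 20 and pooled calls were chosen after seeing the data and changed no direction. Depth limits single CpGs, since 10 calls with 0 methylated allow up to 30%.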
